A study of Mus musculus with 4 samples.

Results

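Enterochromaffin cells are the serotonin-producing endocrine cells of the gut epithelium. Here they were defined cell by cell from transcript counts. A member had 500 or more detected genes and no more than 20% mitochondrial transcripts, carried Tph1 at 0.1% or more of its transcripts and in at least 3 copies, had at least 3 copies of Chga, and held each of the hormone genes Sst, Gip, Ghrl, Gcg, Nts and Cck below 2%. This rule found 1699 cells among the 11574 that passed the same quality limits in 3 libraries, with 242 at embryonic day 17.5 (E17.5), 589 in the adult and 868 after irradiation of adults. It found 0 of 4226 cells in the remaining library, from embryonic day 12.5 (E12.5), which allows a share of up to 0.0710% by a floor of 3 counts. Over the 4 libraries, 15800 of 22731 deposited barcodes passed the quality limits. Because Tph1, Chga and the hormone limits chose the cells, the levels of these genes are given as a description only.

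The study sorted intestinal epithelial cells of reporter mice by flow cytometry and sequenced single cells by the 10x Genomics method, in which each captured transcript is counted once through a unique molecular identifier (UMI). All groups share the Bmi1-GFP genotype, a reporter of Bmi1, a Polycomb gene used as a marker of intestinal stem cells. The groups were E12.5 embryos, E17.5 embryos, untreated adults and irradiated adults, each with 1 library, and the protocol names the small intestine for embryos of the E17.5 age. The sort gate, the number of animals per library, the adults' age and gut segment, and the dose and time of irradiation are not given in the sources used here. Differences between stages or with irradiation therefore have no replicate check and carry no p-value, and stage or irradiation cannot be told apart from the animals or the library.

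Enterochromaffin cells hydroxylate tryptophan with Tph1, decarboxylate the product with Ddc and load serotonin into granules with the vesicular monoamine transporters Slc18a1 and Slc18a2. Their granules are built around the chromogranins Chga and Chgb. They sense irritants, nutrients and microbial products, and release serotonin onto sensory nerve endings and neighbouring cells. Many also make a peptide, above all substance P, which is cut from the Tac1 precursor, or secretin, encoded by Sct.

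The 4 libraries held 38648331 to 90674425 UMIs. Levels are given as counts per 1000000 UMIs of the summed cells of a class (CPM). Enterochromaffin cells had median depths of 5912.5 UMIs at E17.5, 6944 in the adult and 8970.5 after irradiation, and summed to 1445520, 4379560 and 8610290 UMIs. Their median mitochondrial share was 2.07%, 5.2% and 4.61%. Pairs of libraries shared 6 to 12 barcodes, and 0 shared barcodes were enterochromaffin cells in both. Transcripts of other cell types were present in the adult libraries. The 10 genes of a tuft cell list, summed, stood at 6.92 CPM in enterochromaffin cells at E17.5, with 7 of the 10 at 0, but at 744 in the adult and 1297 after irradiation, against 14375 and 16021 in tuft-marker cells. These cells, with at least 5 UMIs and 0.5% of UMIs in tuft genes and fewer than 3 Chga UMIs, numbered 992 and 254. They should lack enterochromaffin genes, and their levels are given beside results that free RNA could touch.

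Enterochromaffin cells made up 5.26% of quality-passed cells at E17.5 (exact Clopper-Pearson 95% interval 4.63 to 5.94), 15.5% in untreated adults (14.4 to 16.7) and 27.3% after irradiation (25.7 to 28.8). Intervals and limits on counts cover counting error only, and the sort can set these shares. Against all cells with at least 3 Chga UMIs the order was different: 18.6% of 1300 cells at E17.5 (16.5 to 20.8), 56.0% of 1052 adult cells (52.9 to 59.0) and 40.5% of 2141 irradiated cells (38.5 to 42.7). Cells just outside the Tph1 limit, at 0.05 to 0.1% of UMIs, numbered 47, 18 and 53, with median Chga of 1.04%, 0.642% and 1.36%. Cells just inside, at 0.1 to 0.15%, numbered 54, 39 and 81, with median Chga of 1.5%, 0.839% and 1.39%. Another 23, 28 and 125 cells passed the Tph1 limit but exceeded a hormone limit, which was that of Cck in 19, 10 and 86 of them.

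Tph1, the rate-limiting enzyme of serotonin synthesis in the gut (RefSeq GRCm38.p6 chromosome 7, 46644641 to 46672537), stood at 2575, 4896 and 3318 CPM in enterochromaffin cells of the E17.5, adult and irradiated adult libraries. Chga stood at 12523, 12801 and 15095. All lists of 3 levels below follow this order of libraries. The cells were compared with the other chromogranin cells of the same libraries, which had at least 3 Chga UMIs, fewer than 3 Tph1 UMIs and insulin transcripts below 2%, and numbered 780, 365 and 922. Of the 3 markers of the label, Tac1 was the 1 that the rule did not use, and it was uneven: it stood at 6034, 213 and 2079 CPM, and 91.7%, 44.8% and 81.9% of enterochromaffin cells had a Tac1 UMI. After thinning every cell to 2000 UMIs these shares were 84.2%, 23.1% and 54.3%, against 0.219% of thinned tuft-marker cells in the adult and 11.8% after irradiation. Most adult members had no Tac1 UMI. Lmx1a, a homeodomain factor of the serotonin lineage, was at 303, 246 and 288 CPM in enterochromaffin cells and at 11.2, 5.75 and 5.33 in other chromogranin cells. Slc18a1, the vesicular transporter of endocrine cells, was at 558, 516 and 681 against 65.5, 68.5 and 64.3. Both levels varied little between libraries beside their distance from the other cells.

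**Figure D1:**
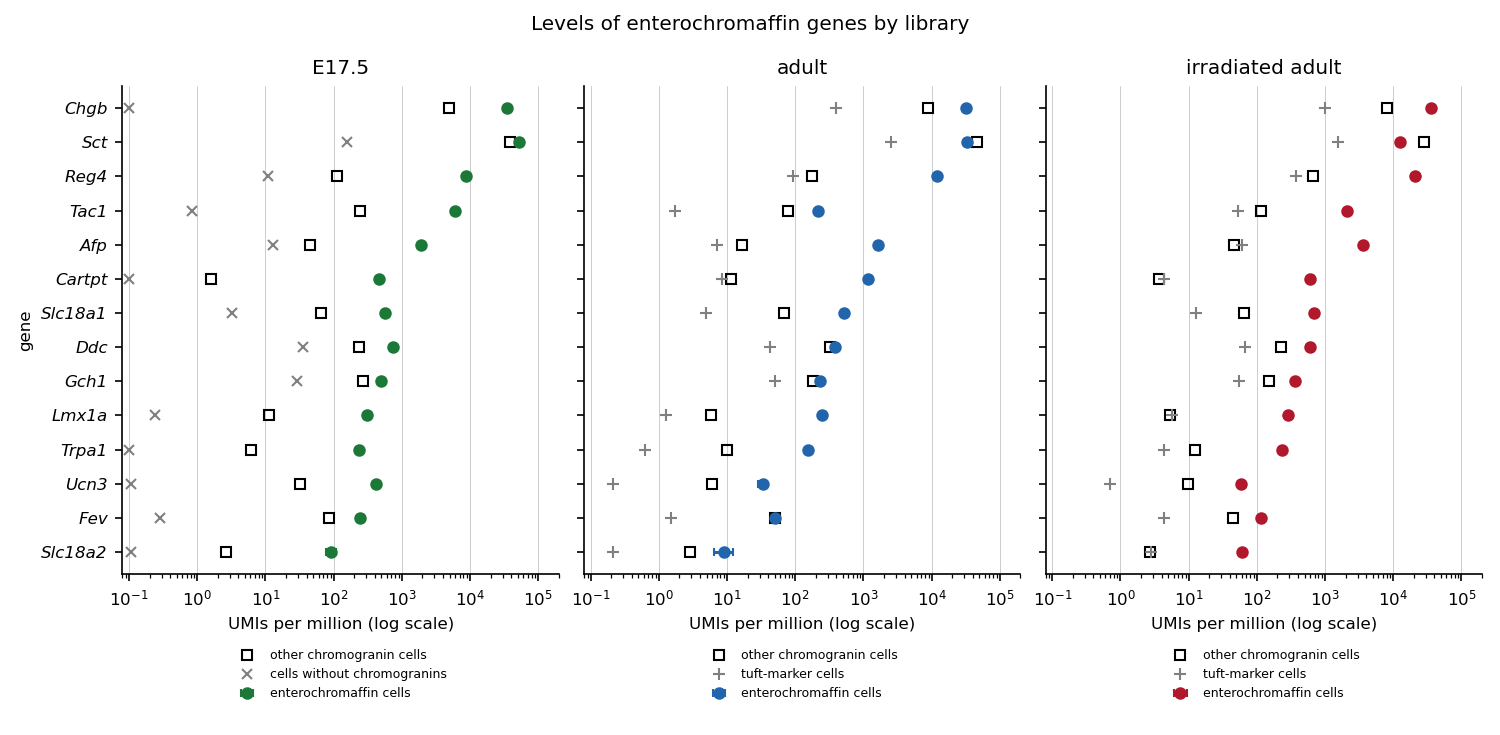
Levels of enterochromaffin genes (rows) in CPM on a log axis, in 1 panel per library. Coloured circles are enterochromaffin cells with 95% counting intervals, open squares other chromogranin cells, crosses cells without chromogranin transcripts at E17.5 and plus signs tuft-marker cells in the adult libraries, with levels under 0.1 drawn at 0.1. Lmx1a and Slc18a1 keep similar levels in the 3 panels, while Tac1 runs from 213 in the adult to 6034 at E17.5.

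Enterochromaffin cells were compared with other chromogranin cells by summing UMIs per library and class and testing the 6 sums with edgeR's quasi-likelihood test, with library as a block and Benjamini-Hochberg adjustment over all genes. The 8 genes of the rule and the insulin genes were removed first. Since Tph1 and Chga selected the cells, the test describes what accompanies that selection and is no independent evidence for their name. Of 12175 genes, 1699 (14%) were higher and 1874 (15.4%) lower at an adjusted p under 0.05. The comparison class differed between libraries: 8 Paneth cell genes, summed, stood at 81.6, 16055 and 174050 CPM in it, against 38.0, 3563 and 5244 in enterochromaffin cells. The part of Paneth cell RNA in the results was not tested. Without the adult or the irradiated library the calls in both directions numbered 1649 and 1497 instead of 3573, and without the library block 602.

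Among 19 fitted genes of the enterochromaffin marker list, 16 were higher and 0 lower, with a median log2 fold change of 2.87 beside −0.01 for all genes. The gene lists were chosen with earlier results of these data known. This count therefore describes only, as does the count from the same list in the Tac1 comparison below. Cartpt, which encodes the CART peptide, had the highest fold change of the named genes. It stood at 456, 1159 and 604 CPM in enterochromaffin cells and at 1.57, 11.3 and 3.64 in other chromogranin cells, a log2 fold change of 7.02 (edgeR adjusted p = 0.000436). Reg4, a secreted C-type lectin, reached 8801, 11814 and 20509 against 111, 175 and 675 (log2 fold change 5.52, adjusted p = 0.00161). Tuft-marker cells held Reg4 at 92.7 and 369 CPM in the adult and irradiated adult. Afp, the alpha-fetoprotein gene, was at 1932, 1615 and 3636 against 44.2, 16.3 and 46.9 (log2 fold change 5.83, adjusted p = 0.000488). Afp UMIs were unevenly spread in the adult libraries. The tenth of cells richest in Afp held 96.9% of its UMIs in the adult and 92.3% after irradiation, against 47.2% at E17.5. An Afp UMI was detected in 78.5%, 29.7% and 57.6% of enterochromaffin cells. Lmx1a had a log2 fold change of 5.02 (adjusted p = 0.000234) and the amino acid transporter gene Slc38a11 of 4.79 (0.000499). Tac1 was also higher (3.23, adjusted p = 0.0173), as were Ucn3, which encodes urocortin 3 (2.72, 0.00438), and Chgb (2.01, 0.00682). The 3 list genes that did not pass were Fev, which encodes an ETS factor also used in serotonin neurons (0.72, adjusted p = 0.11), the homeodomain factor gene Mnx1 (1.55, 0.0861) and Ddc (0.85, 0.0708). Mnx1 was at 60.9, 0.913 and 14.1 CPM against 14.1, 2.87 and 2.29, and was lower than in the comparison class in the adult. Without the adult library Fev, Mnx1 and Ddc passed, with adjusted p of 0.0232, 0.00675 and 0.0254, and Gch1 did not pass without E17.5 (0.0678) or the irradiated adult (0.192).

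Most genes with the highest fold changes were outside that list. Shisa9, a regulator of AMPA-type glutamate receptors, was at 42.9, 108 and 68.8 CPM against 0.261, 0.479 and 0.675 (log2 fold change 6.65, edgeR adjusted p = 0.000397). Aqp9, a channel for water and glycerol, was at 16.6, 40.0 and 24.9 against 0, 0.240 and 0.405 (6.18, 0.00124). Gata2, a zinc-finger transcription factor gene, was at 8.99, 16.0 and 15.8 against 0.261, 0 and 0.405 (5.15, 0.00236). A single direction in the 3 libraries was a condition for naming these genes. The sulfotransferase gene Chst1 had a log2 fold change of 6.38, the plasma apolipoprotein gene Apoa5 of 5.16, and the genes of the synaptic proteins Cntnap2 and Dlg2 of 5.10 and 5.01. Ccdc170, Scgb3a1, Cwh43 and Ccdc3 completed the named higher genes, with log2 fold changes of 5.68, 5.25, 5.09 and 5.05.

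In the serotonin list, 4 of 14 fitted genes were higher, 4 lower and 6 did not pass, with a median of 0.10. The list did not move one way. Slc18a2 had a log2 fold change of 3.89 (edgeR adjusted p = 0.00634), Slc18a1 of 2.87 (0.000397), Qdpr, which regenerates tetrahydrobiopterin, of 0.90 (0.00469), and Gch1, the first enzyme of tetrahydrobiopterin synthesis, of 0.56 (0.0361). Slc6a4, which encodes the serotonin reuptake transporter, was at 0.692, 2.97 and 1.86 CPM against 4.96, 13.4 and 5.47 (log2 fold change −2.26, adjusted p = 0.00553), and the monoamine oxidase gene Maoa at 4.84, 24.4 and 8.36 against 12, 89.8 and 16.0 (−1.71, 0.00278). Spr, which encodes an enzyme of tetrahydrobiopterin synthesis, and the amino acid transporter subunit gene Slc3a2 had log2 fold changes of −0.81 and −0.38. The call of Slc3a2 was lost without any 1 library (adjusted p of 0.0585, 0.126 and 0.238 without E17.5, the adult and the irradiated adult), and that of Gch1 without E17.5 (0.0678) or the irradiated adult (0.192).

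The granule list was divided, with 6 of 17 genes higher, 4 lower and a median of 0.16. The neurosecretory protein gene Vgf was at 245, 274 and 237 CPM against 57.6, 55.6 and 32.9 (log2 fold change 2.15, edgeR adjusted p = 0.000547). Ptprn, a granule membrane protein gene, was higher as well (2.06, 0.000612), and so was Pcsk1, whose product cuts prohormones (1.35, 0.00556). Secretogranin 2 ran the other way: Scg2 was at 232, 126 and 164 against 1064, 2224 and 1716 (−3.53, adjusted p = 0.00425). The calcium-binding protein gene Scgn was at 5.53, 6.85 and 9.52 against 139.7, 173 and 132 (−4.57, adjusted p = 0.000234), and the carboxypeptidase gene Cpe had a log2 fold change of −1.35 (0.00206). Of 20 exocytosis genes 11 were higher and 0 lower, with a median of 0.67, and 7 were higher without the adult library and 6 without the irradiated library. The vesicle GTPase gene Rab3c (3.15), the SNARE gene Snap25 (2.73) and the calcium sensor genes Syt7 (1.96) and Syt5 (1.90) led them. Of 9 fitted peptide hormones outside the rule, 0 were higher and 4 lower, with a median of −2.25.

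Transcription factors were balanced, with 8 of 35 higher, 9 lower and a median of 0.02. After Lmx1a came Foxa1, a forkhead pioneer factor gene, at 170.2, 230.2 and 233 CPM against 22.7, 20.1 and 24.9 (log2 fold change 2.93, edgeR adjusted p = 0.000687). Pax4 (2.01), Sox4 (1.66), Myt1 (1.17), Neurod1 (1.16), Onecut2 (0.73) and Hes6 (0.51) were the other higher genes, of which Onecut2 did not pass without the adult library (adjusted p 0.0751) and Hes6 not without the adult (0.123) or irradiated adult library (0.0959). The lower side held factors of other endocrine lineages. Hhex, known from somatostatin cells, was at 2.08, 1.37 and 3.60 CPM against 98.6, 76.7 and 73.4 (−5.26, adjusted p = 0.000436). Isl1 was at 8.30, 11.2 and 16.3 against 468, 497 and 228 (−5.14, 0.000813). Etv1 (−3.33), Pdx1 (−2.62) and Pax6 (−1.63) were lower as well. Among the 10 named lower genes, Rbp4, which encodes the plasma retinol carrier, had the highest level in the comparison class, at 3281, 1434 and 781 against 96.2, 29.0 and 29.6 in enterochromaffin cells (−5.41, adjusted p = 0.000234). The phospholipase gene Plb1 (−6.04), Rassf9 (−5.79), Ooep (−5.68), Tril (−5.61), the bombesin receptor gene Grpr (−5.27) and Lyzl4 (−5.22) completed them with Gpr119.

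In the sensor list, 8 of 18 genes were higher and 7 lower, with a median of 0.07. Trpa1, the channel for electrophilic irritants, was at 234, 156 and 232 CPM against 6.13, 10.1 and 12.2 (log2 fold change 4.17, edgeR adjusted p = 0.00121). Trpm2, a channel opened by oxidative signals, was at 111, 469 and 406 against 8.35, 39.8 and 23.2 (3.54, 0.000234). Trpc4 had a log2 fold change of 3.54 (0.00138). The interleukin 18 receptor gene Il18r1 (3.45), the galanin receptor gene Galr1 (1.67), the short-chain fatty acid receptor gene Ffar2 (1.61) and the GABA receptor gene Gabbr1 (1.30) were higher as well. Trpm5 also passed (0.91), but it stood at 0, 62.8 and 152 CPM in enterochromaffin cells beside 1149.6 and 1583 in tuft cells of the adult libraries, which it helps to define, and the part of tuft cell RNA was not tested. Receptors for long-chain fatty acids and their derivatives were lower: Gpr119 (−5.59, adjusted p = 0.000732), Ffar1 (−5.03, 0.000234) and Ffar4 (−4.57, 0.000673). Ffar1 was at 2.77, 5.71 and 7.67 CPM against 65.3, 210.1 and 156. The melanocortin receptor gene Mc4r (−3.63), the cannabinoid receptor gene Cnr1 (−3.29), the glucose transporter gene Slc5a1 (−2.44) and the adrenergic receptor gene Adra2a (−1.93) were lower too. Without the adult library the adjusted p of Galr1 was 0.071, of Trpm5 0.0579 and of Mc4r 0.115. Without the irradiated adult library it was 0.075, 0.248 and 0.191, and 0.121 for Adra2a. The mechanosensitive channel gene Piezo2 had 1, 0 and 0 UMIs in enterochromaffin cells of the 3 libraries and was not fitted.

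Excitability genes were divided, with 8 of 18 higher, 8 lower and a median of 0.15, or 6 and 5 of 19 without the irradiated library. The sodium channel gene Scn3a was at 515, 448 and 419 CPM against 60.0, 78.6 and 41.0 (log2 fold change 2.73, edgeR adjusted p = 0.000612). Scn8a (2.28, 0.0119) and the calcium channel subunit gene Cacna2d1 (1.92, 0.000728) were higher as well, while the sodium channel gene Scn9a was lower (−3.52, 0.016, and 0.0763 without the irradiated adult). Both parts of the ATP-sensitive potassium channel were lower, Kcnj11 (−3.68, 0.00529) and Abcc8 (−3.33, 0.00515). The calcium-activated potassium channel gene Kcnma1 had a log2 fold change of −3.8 (0.00161).

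**Figure D2:**
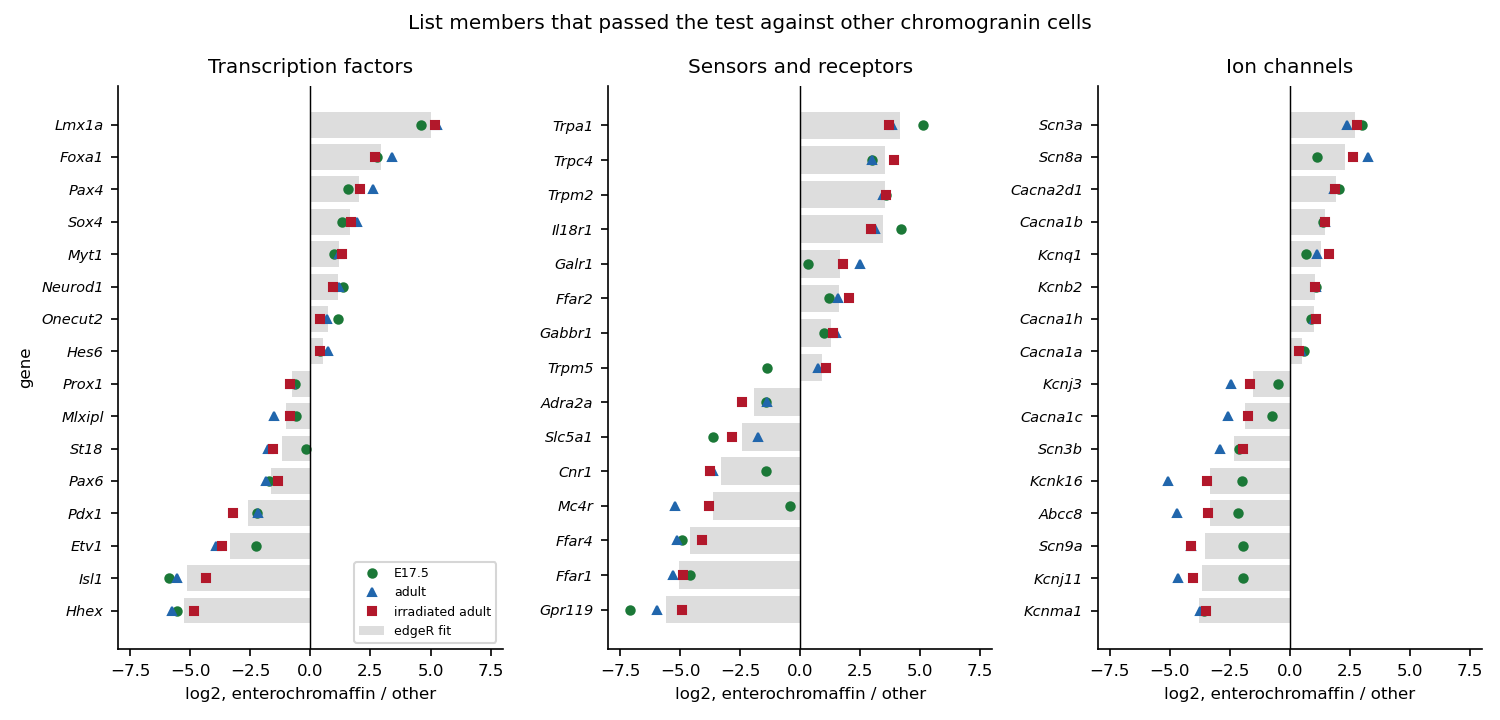
Log2 fold change of enterochromaffin over other chromogranin cells (x axis) for genes of 3 lists that passed the test (rows). Grey bars are the edgeR estimate and coloured marks the 3 libraries. Lmx1a, Trpa1 and Scn3a lie right of 0 and Hhex, Gpr119 and Kcnma1 left of 0 in all 3 libraries, while Trpm5 lies left of 0 at E17.5 and right of 0 in the adult libraries.

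Enterochromaffin cells showed little cell-cycle expression. All 14 fitted G2 and mitosis genes were lower than in other chromogranin cells (median −2.35), and 13 of 17 S phase genes were lower and 0 higher (median −1.49). After thinning, 1 of 240, 1 of 554 and 1 of 838 enterochromaffin cells had at least 3 UMIs over 15 mitosis genes, against 36 of 773, 9 of 311 and 7 of 717 other chromogranin cells. When the comparison was limited to cells with at least 2% of UMIs in 1 of the 6 hormone genes, 3 of 13 mitosis genes and 0 of 15 S phase genes were lower. Immediate early genes, which respond to stimulation and to tissue dissociation, were higher in 14 of 17 cases and lower in 0 (median 0.75). Klf4 had a log2 fold change of 2.17 (edgeR adjusted p = 0.000774), Dusp1 of 1.66 (0.002) and Jun of 0.98 (0.0079). The count was 8 of 17 against hormone-rich cells, 3 of 17 without the adult library and 9 of 17 without the irradiated library. Over all genes the higher calls in these settings were 1259, 815 and 775 instead of 1699. Without the irradiated library 8 of 16 S phase genes were lower. In the tuft list 7 of 10 genes passed as higher, 1 without the adult library and 0 of 9 without the irradiated library.

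Bmi1 itself was low in enterochromaffin cells, at 38.7, 16.4 and 23.9 CPM against 15.5, 9.82 and 11.5 in other chromogranin cells. Its log2 fold change of 0.76 passed (edgeR adjusted p = 0.0334), but not without any 1 of the libraries, with adjusted p of 0.0523, 0.0912 and 0.0808 without E17.5, the adult and the irradiated adult. Reporter transcripts (eGFP) were at 2.08, 2.28 and 15.4 CPM in enterochromaffin cells and 3.82 and 15 in tuft-marker cells of the adult libraries.

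The peptide genes Tac1 and Sct varied widely among enterochromaffin cells. They lie at chromosome 6, 7555061 to 7562978 (plus strand), and chromosome 7, 141278329 to 141279174 (minus strand), in RefSeq GRCm38.p6. The bases just before each gene start are shown because the genes ran opposite ways across cells in 2 of the 3 libraries. Capitals mark CAGATG, an E-box word of the kind that NeuroD factors bind, and TAATTA, a homeodomain core. Both strands were searched (CATCTG is the reverse complement of the first), and the marked words do not overlap. The Tac1 window is chr6:7554811-7555060 on the plus strand, and the Sct window is chr7:141279175-141279383 on the minus strand.
Tac1: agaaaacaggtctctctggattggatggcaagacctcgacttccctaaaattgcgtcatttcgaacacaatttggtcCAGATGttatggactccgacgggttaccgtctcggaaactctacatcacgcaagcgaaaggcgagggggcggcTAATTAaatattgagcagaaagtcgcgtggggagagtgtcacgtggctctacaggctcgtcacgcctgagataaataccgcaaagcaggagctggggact
Sct: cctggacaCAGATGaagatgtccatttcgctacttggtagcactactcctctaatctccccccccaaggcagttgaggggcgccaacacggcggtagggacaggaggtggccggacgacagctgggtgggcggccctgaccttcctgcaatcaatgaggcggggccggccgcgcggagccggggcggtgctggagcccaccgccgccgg
The Tac1 window held 1 E-box word, 173 bases before the gene start, and 1 TAATTA, 100 bases before it. The Sct window held 1 E-box word, 201 bases before the start, and no TAATTA. Among 32851 RefSeq promoters, 14.4% held the E-box word and 4.84% TAATTA in a window of 250 bases, and 12.4% and 4.36% in a window of 209 bases. A match describes the letters only.

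Per cell, the median Tac1 share of UMIs was 0.388% at E17.5, 0 in the adult and 0.0354% after irradiation. The median Sct share was 3.17%, 1.61% and 0.984%. With Tac1-high set at 0.1% of UMIs or more, 171 of 242 enterochromaffin cells were Tac1-high at E17.5 (70.7%, 64.5 to 76.3), 27 of 589 adult cells (4.58%, 3.04 to 6.60) and 261 of 868 irradiated cells (30.1%, 27.0 to 33.2). These intervals are over the cells of single libraries and are no test between groups. Of cells just outside the Tph1 limit, at 0.05 to 0.1% of UMIs, 80.9%, 11.1% and 50.9% were Tac1-high. Just inside it, at 0.1 to 0.15%, 75.9%, 5.13% and 51.9% were. The irradiated share of Tac1-high cells therefore depends on where the Tph1 limit is set. Tac1-high is a range of 1 gene and not a cell type: 46, 55 and 206 cells lay between 0.05% and 0.2%. At a limit of 0.05% the shares were 81.8%, 10.7% and 44.2%, and at 0.2% they were 62.8%, 1.36% and 20.5%, in the same order. Sct at 2% of UMIs or more was found in 68.2%, 40.6% and 11.6% of cells.

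At E17.5 and after irradiation, Tac1-high cells were less often Sct-high than Tac1-low cells were. Even so, 96 of 242 E17.5 cells were high in both. At E17.5, 96 of 171 Tac1-high cells were Sct-high (56.1%, 48.4 to 63.7), against 69 of 71 Tac1-low cells (97.2%, 90.2 to 99.7). In the irradiated adult, 10 of 261 Tac1-high cells were Sct-high (3.83%, 1.85 to 6.93), against 91 of 607 Tac1-low cells (15%, 12.2 to 18.1). In the adult the counts were 10 of 27 (37.0%, 19.4 to 57.6) and 229 of 562 (40.7%, 36.7 to 44.9). Cells low in both numbered 2 of 242, 333 of 589 and 516 of 868. Across cells, the Spearman correlation of the Tac1 and Sct shares was −0.60 over 242 cells, 0.05 over 589 and −0.51 over 868. With every cell thinned to 2000 UMIs it was −0.58 over 240 cells, −0.09 over 554 and −0.47 over 838. Shares within a cell sum to a fixed total and cells of 1 library share its RNA, so these values describe 3 libraries. The Spearman correlation of Sct and Tph1 was 0.27, 0.51 and 0.48, and 0.20, 0.48 and 0.36 after thinning. That of Tac1 and Tph1 was 0.01, −0.02 and −0.41, and 0.03, −0.08 and −0.27 after thinning. Tph1 chose the cells, so values with Tph1 cover a cut range and describe only. Tac1 and Chgb had correlations of 0.56, 0.20 and 0.52, and 0.52, 0.14 and 0.46 after thinning.

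**Figure D3:**
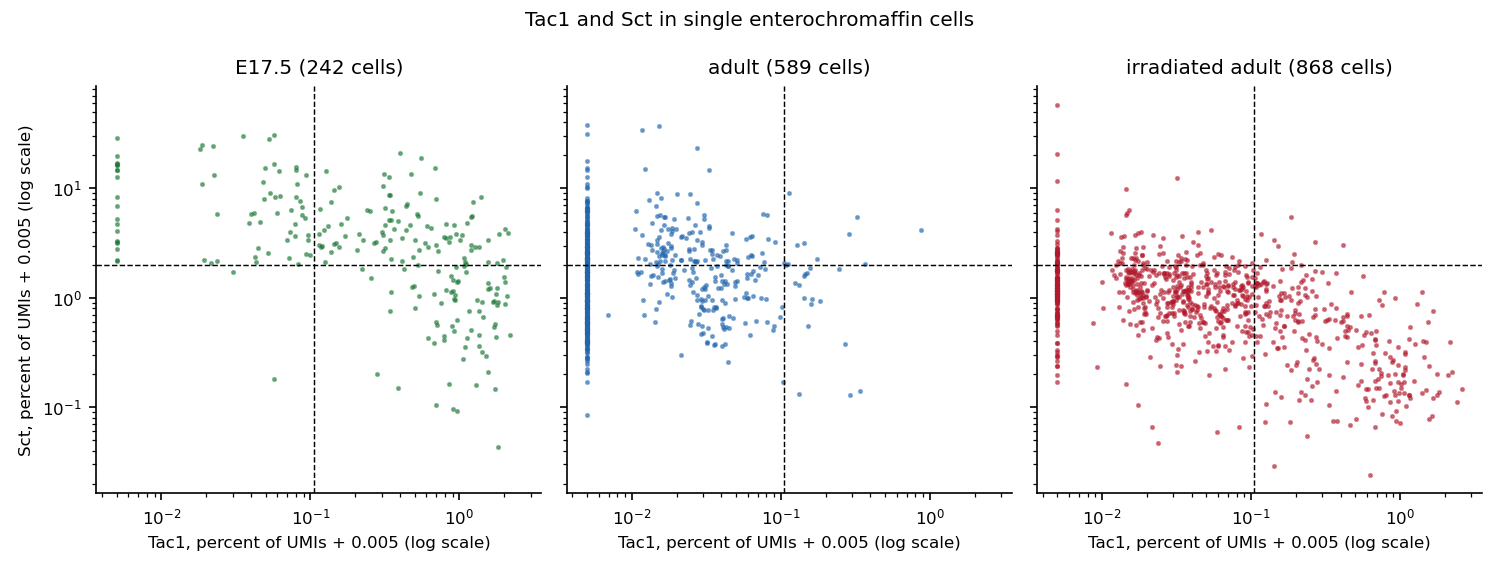
Each point is 1 enterochromaffin cell, with Tac1 (x axis) and Sct (y axis) as a percent of the cell's UMIs plus 0.005 on log axes, in 1 panel per library. Dashed lines mark 0.1% Tac1 and 2% Sct. At E17.5, 69 of the 71 cells left of the Tac1 line lie above the Sct line, whereas only 27 of 589 adult cells lie right of the Tac1 line and only 10 of the 261 irradiated cells right of it lie above the Sct line.

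To see what else accompanied Tac1, the Tac1-high and Tac1-low enterochromaffin cells of each library were summed and the 6 sums tested as before, after removing Tac1 and the 8 genes of the rule. Of 10274 genes, 203 (1.98%) were higher in Tac1-high cells and 177 (1.72%) lower, with a median log2 fold change of 0.00 over all genes. DESeq2 called 105 higher and 89 lower. Without the library block edgeR called 0 genes, with 471 at an unadjusted p under 0.05. The adult Tac1-high sum rests on 27 cells, and without the adult library 435 were higher and 397 lower.

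Vim, which encodes the intermediate filament vimentin, had the highest fold change of the named genes. It stood at 1157 against 59.4, 296 against 13.4 and 1375 against 66.2 CPM in Tac1-high against Tac1-low cells of the E17.5, adult and irradiated libraries (log2 fold change 4.38, edgeR adjusted p = 1.4e-08). Slc18a2, the vesicular transporter best known from neurons, was at 127 against 4.75, 66.3 against 6.21 and 144 against 13.6 (3.55, 4.99e-06). Slc18a1, its endocrine relative, did not pass, with a log2 fold change of −0.06 (0.957). Ucn3 was at 544 against 90.3, 326 against 19.4 and 122 against 22.6 (2.95, 3.12e-05). The homeodomain factor gene Mnx1 was at 82.0 against 9.51, 5.10 against 0.717 and 32.5 against 3.8 (3.11, 0.000146). A single direction in the 3 libraries was a condition for naming these genes, and Mnx1 in the adult rests on 4 UMIs.

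In the enterochromaffin marker list, 11 of 18 fitted genes were higher in Tac1-high cells and 2 lower, with a median of 0.93. Besides Mnx1 and Ucn3, the higher genes were Gstk1 (log2 fold change 2.51), Afp (1.94), Reg4 (1.85), Trpa1 (1.80), Rab3c (1.74), Ddc (0.97), Gch1 (0.95), Fev (0.91) and Amigo2 (0.89). Cartpt was lower (−1.15, edgeR adjusted p = 0.00655), and so was the adhesion receptor gene Adgrg4 (−0.74, 0.0102). Lmx1a did not pass (0.12, 0.834). Of 5 fitted peptide hormones, Iapp, which encodes amylin, was higher (2.09, 0.00111), while Sct (−1.18, 0.00706) and the peptide YY gene Pyy (−1.49, 0.0411) were lower. Without E17.5 the adjusted p of Sct was 0.137, of Reg4 0.118 and of Gch1 0.204, and without the adult that of Amigo2 was 0.0588. With the Tac1 limit at 0.05%, 7 of 18 markers were higher and 0 lower: Reg4, Gch1, Fev, Amigo2, Cartpt and Adgrg4 did not pass.

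Of 32 transcription factors, 3 were higher in Tac1-high cells and 2 lower, with a median of 0.00. Nkx2-2, a homeodomain factor gene of the endocrine lineage, was at 195 against 66.6, 61.2 against 34.4 and 134 against 43.9 CPM (log2 fold change 1.47, edgeR adjusted p = 0.000712), and Mnx1 and Fev were the other higher genes. Onecut3 (−1.47, 0.00116) and Sox4 (−0.66, 0.0191) were lower. Among 14 sensors Trpa1 was higher, and Trpm2 (−0.71, 0.0407) and Galr1 (−0.88, 0.0276) were lower. In the serotonin list, Slc18a2, Ddc and Gch1 were the 3 of 13 genes that were higher, and 0 were lower (median 0.06). Of 20 exocytosis genes 2 were higher, Rab3c and Cplx1 (1.95, 0.00506), and 3 lower, Syt7 (−1.01), Syt5 (−0.84) and Snap25 (−0.67), with a median of −0.03. Without E17.5 the adjusted p of Sox4 was 0.181, of Trpm2 0.126 and of Gch1 0.204. Without the irradiated adult it was 0.325 for Trpm2, 0.6 for Galr1 and 0.132 for Snap25. With the Tac1 limit at 0.05%, Syt7, Syt5, Snap25, Sox4, Trpm2, Galr1, Fev and Gch1 did not pass. Outside the lists, the cation channel gene Trpc7 was higher (2.48, 0.000246). Asic5, of the acid-sensing channel family, was at 27.3 against 195, 5.10 against 49.7 and 12 against 49.2 CPM (−2.41, 0.000167).

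The other named genes higher with Tac1 were Fbln2 (log2 fold change 3.40), the interleukin 17 receptor gene Il17re (3.16), Fmo1 (3.1), Fxyd6 (2.93), C1qa (2.89), Dusp2 (2.63), Vcan (2.55), Rgcc (2.51) and Baiap3 (2.49). Fbln2 and Vcan encode matrix proteins, and C1qa is best known from macrophages. The mesenchyme list of 10 genes summed to 15.6 against 11.9, 0 against 0.956 and 0.650 against 0.904 CPM in Tac1-high against Tac1-low cells, and the immune list of 10 genes to 6.83 against 9.51, 15.3 against 10.5 and 20.5 against 23.0. Named genes lower with Tac1 were Reg1 (−2.86), the protease gene Ctse (−2.84), Stmn2 (−2.72), Pdgfd (−2.43), Fbxl7 (−2.42), Cadm1 (−2.39), Rnase1 (−2.39), Prrx2 (−2.34) and Serpina1d (−2.29), which has near-identical copies and an uncertain count. Fbln2 did not pass without the irradiated adult (edgeR adjusted p = 0.123), nor Stmn2 and Rnase1 without E17.5 (0.172 and 0.221). Reg1 and Rnase1 are known from the exocrine pancreas. The acinar list summed to 1857 against 6805 CPM at E17.5, 178 against 264 in the adult and 125 against 186 after irradiation. The enterocyte list summed to 1387 against 3304, 2957 against 5302 and 3046 against 3475, and the Paneth list to 42.9 against 26.1, 3304 against 3575 and 2823 against 6591. Apoa4 and Sis of the enterocyte list and Itln1 and Ang4 of the Paneth list were called lower with Tac1. The part of such RNA in these results was not tested. With the Tac1 limit at 0.05%, Rgcc, Pdgfd and Cadm1 did not pass.

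**Figure D4:**
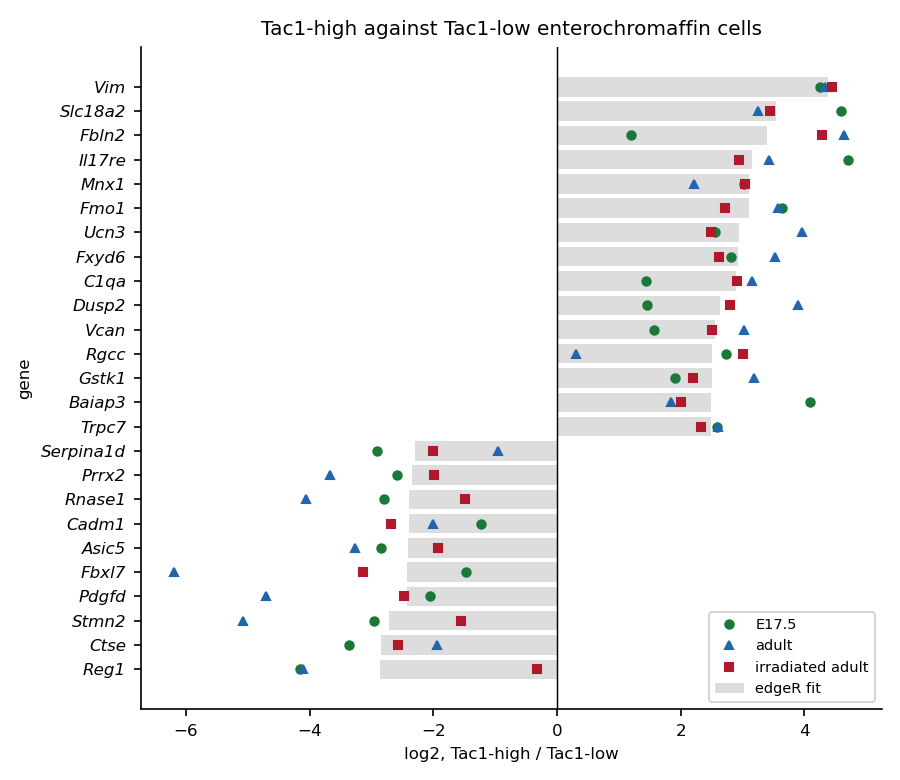
Log2 fold change of Tac1-high over Tac1-low enterochromaffin cells (x axis) for the 25 named genes (rows), with grey bars for the edgeR estimate and coloured marks for the 3 libraries. The 3 marks of Vim lie close together, while the irradiated adult mark of Reg1 lies near 0 and the others far left of it.

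Some genes were found in few enterochromaffin cells and were chosen here after their values were seen. Penk, the enkephalin precursor gene, had 1391 UMIs at E17.5 in 20 of 242 cells, and 10 cells with at least 10 Penk UMIs held 1350 of them. The richest cell had 520, and 0 of 780 other chromogranin cells reached 10. Penk had 0 UMIs in the adult and 3 after irradiation. Folds against a library at 0 are computed from a floor of 3 UMIs in its enterochromaffin cells. They cover counting error of UMIs only, not the spread over cells. For Penk this floor gives 1405-fold, which is no lower limit, because 10 cells held most of its UMIs. Counted by cells, Penk was detected in 20 of 242 at E17.5 (8.26%) and 0 of 589 in the adult, with an upper limit of 0.624%. The 10 Penk cells had medians of 0.342% Tph1 and 5.21% Sct, beside 0.216% and 3.13% in the other 232, and 5 of the 10 were Tac1-high. Olfr558 and Olfr78, which encode receptors of short-chain fatty acids, were found mainly after irradiation. Olfr558 had 202 UMIs there, 200 of them in Tac1-high cells, and was detected in 16.9% of these and 0.329% of Tac1-low cells. Olfr78 had 126 UMIs, 112 of them in Tac1-high cells, and was detected in 24.1% and 1.65%. E17.5 and the adult held 11 and 0 UMIs of Olfr558 and 3 and 3 of Olfr78, with 27 Tac1-high cells in the adult. Pyy in the adult was uneven as well, with 2430 of its 2604 UMIs in 39 cells.

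Adult and E17.5 enterochromaffin cells were compared as 2 summed libraries, on the log2 ratio of CPM plus 1, which understates changes of low genes. Of 10427 genes with at least 20 UMIs in either, 1305 (12.5%) were at least 2-fold higher in the adult and 961 (9.22%) at least 2-fold lower, with a median of −0.03 over all genes. A gene low in 1 of the libraries enters only where it is high in the other, so counts of list members describe and support nothing, here and for irradiation. With TMM scaling that median was 0.09, and the share of higher genes among those past 2-fold was 66.0% instead of 57.6%. The enterochromaffin marker list had 1 of 19 genes past 2-fold higher and 7 lower (median −0.58, and −0.17 in other chromogranin cells). Tac1 was 28.3-fold lower in the adult than at E17.5 (conditional 95% interval 26.4 to 30.3), Ucn3 12.5-fold (10.4 to 15) and Fev 4.89-fold (4.12 to 5.81). Mnx1, Cpb2, Rab3c and Gch1 were the other markers past 2-fold lower, with log2 ratios of −5.02, −3.53, −2.19 and −1.10. Cartpt was 2.54-fold higher in the adult (2.34 to 2.76). Chgb, Lmx1a and Slc18a1 had log2 ratios of −0.16, −0.30 and −0.11, all short of 2-fold. Sct was 1.59-fold lower in the adult (1.57 to 1.60), with per-cell medians of 3.17% of UMIs at E17.5 and 1.61% in the adult. In the serotonin list, 2 of 13 genes were past 2-fold higher, Aldh2 (log2 ratio 2.15) and Maoa (2.12), and 2 lower, Slc18a2 and Gch1 (median −0.11). Of 20 exocytosis genes 3 were past 2-fold higher and 4 lower (median −0.36), among them Syt7 (2.45) and Bex1 (−3.33).

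The share of Tac1-high cells differed between the libraries, so ratios were also taken over Tac1-low cells alone. Vim was at 838 and 26.0 CPM at E17.5 and in the adult, 32.2-fold lower, with a log2 ratio of −4.96 that was −2.07 among Tac1-low cells. For Ucn3 the values were −3.60 and −2.17, for Mnx1 −5.02 and −2.61, for Fev −2.27 and −1.36, and for Rab3c −2.19 and −0.09. The second Mnx1 value rests on few counts, with a UMI in 2 of 71 Tac1-low cells at E17.5 and 3 of 562 in the adult. The direction turned for Gch1, from −1.10 to 0.47. For Slc18a2 the values were −3.22 and 0.33, but 130 of its 132 UMIs at E17.5 were in Tac1-high cells. Only 2 of 71 Tac1-low cells there had a UMI, so its direction among them cannot be told. Pax4, a homeodomain factor gene of the endocrine lineage, kept its direction, with −2.23 and −2.53.

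The named genes lower in the adult included imprinted and fetal genes. Dlk1, an imprinted Notch-like ligand gene, was at 489 CPM at E17.5 and 1.37 in the adult, 357-fold lower (163 to 976), with a log2 ratio of −7.69 beside −2.45 in other chromogranin cells. The imprinted genes Nnat and Meg3 were at 629 and 852 at E17.5 and at 2.28 and 4.34 in the adult. The glutamate receptor gene Gria3 was at 139 at E17.5, against 13 in other chromogranin cells there, and at 0 in the adult, at least 203-fold lower. Grb10, Igf2bp1, an RNA-binding protein gene of fetal tissue, and the adhesion genes Cdh2 and Ncam1 were also at 0 in the adult, at least 134-fold, 98.0-fold, 77.8-fold and 69.7-fold lower. Nrp2 and Tmem163 had log2 ratios of −6.07 and −5.45. No count is read from the fetal growth list, since genes absent from the adult entered through the E17.5 library.

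Of the genes higher in the adult, Glod5 was at 287 CPM and at 0 at E17.5, at least 138-fold higher, with 20.1 in adult tuft-marker cells. The cytochrome gene Cyp3a11 was at 84.0 and 0 (at least 40.5-fold), with 6.15 in tuft-marker cells. Insl6, of the relaxin family, and the protease gene Tmprss9 were at least 16.9-fold and 8.69-fold higher. Kazald1, Tmem238l, Abcc2, Pcp4l1, Tmprss6 and Ecm1 were at 111, 74.0, 65.3, 77.6, 30.8 and 65.5 CPM in the adult and at 0.692, 2.08, 2.08, 2.77, 0.692 and 2.77 at E17.5. Adult tuft-marker cells held them at 1.48, 22.5, 2.54, 1.06, 0 and 0.424.

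In the sensor list 7 of 14 genes were past 2-fold higher in the adult and 1 lower (median 1.45, and 1.34 in other chromogranin cells). Trpm2 was 4.24-fold higher (3.61 to 5.01), Galr1 5.06-fold (3.45 to 7.70) and Trpc4 12.3-fold (5.2 to 38.5). Trpm5 and the short-chain fatty acid receptor gene Ffar3 were also counted, but at 62.8 and 19.6 CPM in enterochromaffin cells beside 1149.6 and 333 in tuft-marker cells, and the part of tuft cell RNA was not tested. Both entered through the adult library, so the count and median of the sensor list describe only. Il18r1 was past 2-fold lower with a log2 ratio of −1.20, which was 0.25 among Tac1-low cells. Of 33 transcription factors, 2 were past 2-fold higher and 11 lower (median −0.61, and −0.02 in other chromogranin cells). Pax4 was at 188 at E17.5 and 39.3 in the adult, and Nkx2-2 at 158 and 35.6. Among Tac1-low cells alone, the Nkx2-2 levels given above differed by less than 2-fold between these libraries. Of 17 immediate early genes, Klf4 was past 2-fold higher, at 6.19-fold (5.53 to 6.94), and 1 was past 2-fold lower.

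Among interferon and antigen presentation genes, the class I antigen genes H2-D1 and H2-K1 were at 307 and 248 CPM at E17.5 and at 736 and 459.6 in the adult. The log2 ratios were 1.26 and 0.89, beside 0.67 and 0.92 in other chromogranin cells. The interferon regulatory factor genes Irf1 and Irf7 had log2 ratios of 0.81 and 0.87, short of 2-fold. No count is read from the list, because Isg15, Zbp1, Cd74 and H2-Aa had 0 UMIs at E17.5 and entered through the adult library. B2m, the light chain of class I antigen molecules, was at 19.4 CPM at E17.5 and 190.2 in the adult, with 1214 in adult tuft-marker cells. From E17.5 to the adult the summed enterocyte list went from 1945 to 5197 CPM in enterochromaffin cells and the acinar list from 3297 to 260. The part of such RNA in these ratios was not tested.

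Fewer genes were past 2-fold with irradiation than between stages. Of 11601 genes, 421 (3.63%) were at least 2-fold higher in irradiated than in untreated adult enterochromaffin cells and 244 (2.1%) at least 2-fold lower, with a median of 0.10 over all genes. Among Tac1-low cells alone, 249 were higher and 245 lower, and among cells thinned to 2000 UMIs 370 and 141. Tac1 was 9.75-fold higher (9.13 to 10.4), at 213 and 2079 CPM, beside 1.70 and 52.0 in tuft-marker cells. In the marker list 5 of 19 genes were past 2-fold higher and 0 lower (median 0.66, and −0.22 in other chromogranin cells). Besides Tac1 these were Mnx1, Gstk1, Afp and Fev, with log2 ratios of 2.98, 1.35, 1.17 and 1.16, and of 1.48, 0.68, 0.21 and 0.84 among Tac1-low cells. Mnx1 was detected in only 3 of 562 adult and 16 of 607 irradiated Tac1-low cells. Vim was 20.5-fold higher (17 to 24.9), with a log2 ratio of 4.31 in all cells and 2.22 in Tac1-low cells. Ly6a, a surface protein gene of regenerating epithelium, was at 9.13 and 69.6, beside 9.26 in irradiated tuft-marker cells, and its log2 ratio of 2.80 was 0.63 in Tac1-low cells. Of 36 transcription factors, 4 were past 2-fold higher and 0 lower (median 0.11): Mnx1, Fev, Nkx2-2 (1.07) and Neurog3 (2.72), the factor that starts endocrine differentiation. In the serotonin list, Slc18a2 was past 2-fold higher (2.63) and Maoa lower (−1.44) among 13 genes (median 0.23). Among Tac1-low cells alone, the Nkx2-2 levels given above differed by less than 2-fold between these libraries. Those of Slc18a2 differed by less than in all cells. Of 17 granule genes and 17 immediate early genes, 0 were past 2-fold in either direction.

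Targets of p53, the transcription factor activated by DNA damage, were past 2-fold higher in 14 of 23 cases and lower in 0 (median 1.17). Targets nearly absent from the adult, such as Eda2r, entered through the irradiated library, so this count and median describe only. Other chromogranin cells had a median of 0.86 on these genes, beside −0.30 over all genes. Phlda3, an inhibitor of Akt signalling, was at 1.60 CPM in the adult and 98.8 after irradiation, 61.8-fold higher (29.9 to 154), beside 0.848 and 49.8 in tuft-marker cells. Its log2 ratio was 5.26 in all cells and 5.36 in Tac1-low cells. Ccng1 was 9.52-fold higher (7.75 to 11.8), the secreted factor gene Gdf15 10.3-fold (7.08 to 15.5), the pro-apoptotic gene Bax 2.69-fold (2.47 to 2.93) and the p53 antagonist gene Mdm2 2.14-fold (1.86 to 2.46). Eda2r, a death receptor gene, had 1 UMI in the adult and 118 after irradiation, a 60.0-fold ratio with an interval of 10.6 to 2390.5. Cdkn1a, which encodes the cell-cycle inhibitor p21, was at 658, 614 and 1166 in the 3 libraries, 1.90-fold higher after irradiation (1.82 to 1.98), beside 249.8 and 638 in tuft-marker cells.

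Some of the highest ratios were at the level of tuft-marker cells. Zg16 was at 3.42 and 840.0 CPM in the adult and irradiated adult, with 998 in irradiated tuft-marker cells. Muc2 was at 3.20 and 97.0 with 140.3, and Reg3g at 4.11 and 54.6 with 54.8. These are genes of goblet and Paneth cells. In irradiated Tac1-high and Tac1-low cells Zg16 was at 1706 and 358 and Muc2 at 138 and 74.1, and the part of free RNA was not tested. Iapp was at 9.13 and 64.8 with 56.3, and Tac1-high cells held 445 of its 558 UMIs. Fam212b had a log2 ratio of 3.72, with 15.2 in irradiated enterochromaffin and 8.54 in irradiated tuft-marker cells.

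Among genes lower after irradiation, Sct was 2.62-fold lower (2.60 to 2.64), at 33372 and 12734 CPM. Pyy was 13.2-fold lower (11.9 to 14.8), a difference that rests on 39 adult cells. The calcium-binding protein gene S100g was 29.4-fold lower (22.0 to 40.1), at 167 and 5.69. The transcription factor gene Nhlh1 was at 34.7 and 6.85, against 0.719 and 0.135 in other chromogranin cells. The complement gene Cfb was at 182 and 42.3 and the class II antigen gene H2-Ab1 at 32.2 and 7.67. Kcnq1ot1, Sapcd1, Kpna2, Fbxl7 and Ephb3 had log2 ratios of −1.80, −1.73, −1.71, −1.62 and −1.58. Mitosis genes stayed at low levels, with Top2a at 16.4 and 4.53 and Mki67 at 17.1 and 3.95. Only 7 of 15 reached 20 UMIs in either library, so no count is read from that list.

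**Figure D5:**
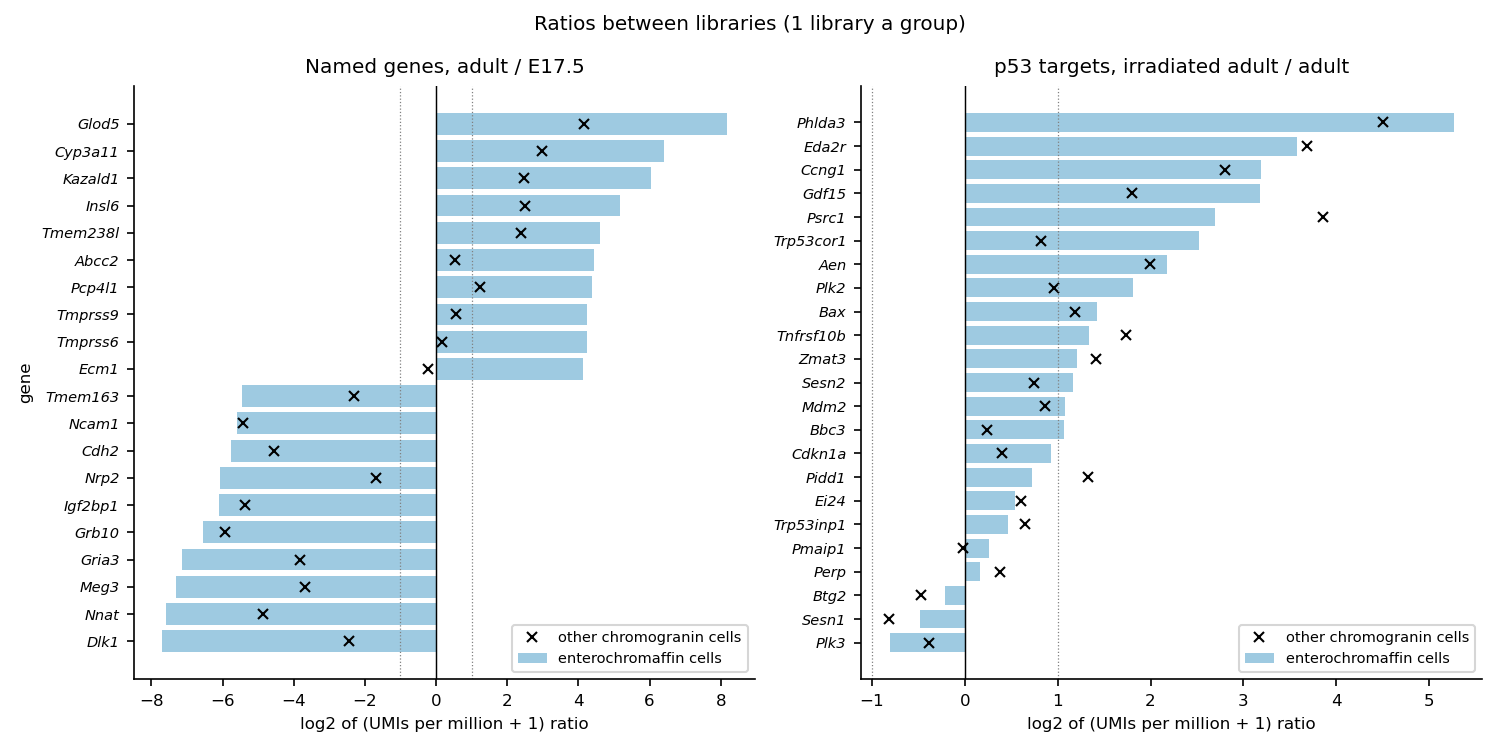
Log2 ratio of CPM plus 1 (x axis) for the named genes of the adult over E17.5 comparison (left, rows) and for 23 p53 targets in irradiated over untreated adult (right, rows). Bars are enterochromaffin cells, crosses other chromogranin cells, and dotted lines mark 2-fold. Glod5 and Dlk1 mark the ends on the left, at 8.17 and −7.69, and Phlda3 leads on the right at 5.26, beside 4.50 in other chromogranin cells.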

How the data were processed

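UMI counts per gene and cell were the deposited values of the authors, 1 matrix per library with 31054 features. Libraries were made with the 10x Chromium version 3 protocol per the labels, and the submitters' processing notes name Cell Ranger 3.1.0 and mm10. Median depth of enterochromaffin cells ran from 5912.5 to 8970.5 UMIs, and intervals cover counting error only. The members and gene lists were chosen with earlier results of these data known.

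Cells were classed by gates on named genes, without clustering. No doublet call was applied in the main analysis, because an automatic caller marked 0.565%, 0.0792% and 0.0314% of cells. Removing the cells with the highest doublet scores was an alternative and took 3, 55 and 22 enterochromaffin cells. UMIs were summed per library and class and tested with edgeR 4.0.16 (quasi-likelihood test, TMM factors, filterByExpr, library as block) in R 4.3.3, with DESeq2 1.42.0 as an alternative, and p-values were adjusted over all genes fitted (Benjamini-Hochberg, threshold 0.05). The 3 libraries are the replicates of these tests. On simulated data the first comparison recovered 39% of genes changed 2-fold and 98.0% of those changed 4-fold among 12223 genes, and the Tac1 comparison 27.3% and 93.9% among 10275. The simulation gave every gene the same fixed spread, which was not taken from the data. These rates need not hold for the tests on the data. Stages were compared as log2 ratios of counts per 1000000 UMIs plus 1, where a gene reached 20 UMIs on one side. Exact conditional binomial intervals, at 95%, covered counting error only.

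Named genes were, in each tested comparison, the 15 with the highest and 10 with the lowest log2 fold change past the threshold, with at least 100 UMIs in the higher class and 1 direction in all 3 libraries. In each stage comparison they were the 10 highest and 10 lowest ratios with 50 or more UMIs and detection in 10% or more of enterochromaffin cells on the higher side, at a level no lower than in that library's cells without chromogranin UMIs (7 cells after irradiation, where this limit hardly acts). Genes of the rule, mitochondrial, ribosomal protein, haemoglobin, immunoglobulin, alpha-defensin, X-inactivation, Y-linked and predicted genes were left out. List members are named beside their list's count. 1 of them is counted but not reported here. Python 3.11.15, scipy 1.17.1, pandas 2.3.3 and scanpy 1.11.5 were used. Alternatives covered cell filters, gate limits, doublets, thinning, scaling, pseudocount, count minimum, comparison class, block and each library left out.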

Additional observations from a re-analysis of the deposited data

How the results depend on the processing

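Of 185 alternative values of shares and counts of genes, 140 stayed within the stated margin (1.5 times for a count, the counting interval for a share) and 45 moved. The share of enterochromaffin cells followed the gate. At E17.5 it was 6.28% with Tph1 at 0.05%, 2.89% at 0.2%, 4.06% after thinning and 18.6% of Chga cells. In the adult it was 24.2% under the stricter cell filter (1000 genes, 10% mitochondrial), 13.2% with Tph1 at 0.2%, 20.5% without tuft-marker cells and 56.0% of Chga cells. In the irradiated adult it was 36.2%, 28.9% (Tph1 at 0.05%), 21.2% (0.2%), 31.2% without a hormone limit and 40.5% of Chga cells. The Tac1-high share was 81.8% and 62.8% at E17.5 with Tac1 at 0.05% and 0.2%, 10.7% and 1.36% in the adult, 44.2% and 20.5% after irradiation, and 22.6% there with Tph1 at 0.2%.

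Replicate numbers are 1 in each library, so pairing rests on the library that both classes share. Without the library block, 354 genes were higher and 248 lower in enterochromaffin cells, and 0 and 0 were called with Tac1 (471 at an unadjusted p under 0.05). Leaving out 1 library gave 775 to 2040 higher and 722 to 2184 lower genes against other chromogranin cells, and 148 to 435 and 127 to 397 with Tac1. For Tac1, DESeq2 called 105 and 89, no filter on low counts 332 and 353, and a limit of 0.05% 88 and 53. A limit of 0.2% was not run because it leaves 8 adult cells. For adult over E17.5, a pseudocount of 10 gave 569 higher and 583 lower, and a minimum of 50 UMIs 608 lower. For irradiated over untreated adult these settings gave 85 and 67, and 280 and 143. Tac1-low cells alone gave 249 higher and thinned cells 141 lower.

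Among Tac1-low cells alone the adult over E17.5 log2 ratio turned to 0.47 for Gch1 and 0.25 for Il18r1. For Slc18a2 it was 0.33, but only 2 of 71 Tac1-low cells at E17.5 had a UMI of it. The Tac1-low alternative, the tuft-marker cells and the hormone-rich comparison class were chosen after seeing the data. With 1 library per group, depth and free RNA limit what can be said of genes at a few CPM.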
